A study of Mus musculus with 16 samples.

Results

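The genes described here carry glucose into the hepatocyte, split it to pyruvate and lactate, divert it to the pentose phosphate pathway and set how much pyruvate enters the mitochondria. The rule takes every probe of the arrays whose gene name is one of 37 listed symbols. It uses no measured value, but the list was drawn up with earlier results of these data known. The arrays hold 36 of these genes on 54 probes, of 30214 gene names in all. A probe that passed a detection filter represented 35 of them, of 19366 genes tested. The missing name is an older symbol of the pyruvate kinase gene Pkm, which was found under its present symbol.

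AML12 cells are a line of hepatocytes from a mouse that carried a transgene for a growth factor, and they divide in culture. The control line carried a scramble shRNA and the other an shRNA that targets the translation factor eIF6, and both shRNAs were induced with doxycycline (doxy). All cells, control cells included, then received insulin for 1 h, at 100 nM by the methods and part of the labels and at 100 mM by another part of the labels, so neither untreated nor uninduced cells are compared here. RNA from the polysomal fraction (mRNA loaded with several ribosomes) and the subpolysomal fraction was hybridized on 16 one-colour Agilent arrays, 4 arrays per group in 4 groups, and the labels speak of replicate experiments. The series holds 1 scramble and 1 eIF6 shRNA, so the effect of eIF6 and any other difference between both lines cannot be told apart.

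Glycolysis starts when hexokinase traps glucose as glucose-6-phosphate, and its pace is set at phosphofructokinase, which fructose-2,6-bisphosphate activates in liver. The bifunctional Pfkfb enzymes make and destroy that activator, lactate dehydrogenase turns pyruvate into lactate and back, and the pyruvate dehydrogenase kinases (Pdk) close the gate to mitochondrial oxidation. Most steps are served by isoenzymes from different genes, and adult hepatocytes are known for their own set, with Slc2a2 and Pklr among them, whereas dividing cells favour Slc2a1, Hk2, Aldoa and Pkm.

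Each value below is a normalized log2 signal, and a difference of 1 is a doubling. All arrays were brought to a single distribution, so a value is relative to the other mRNAs of the same fraction, and the signals of different probes were not set against each other. The polysomal change is the difference of eIF6 shRNA minus scramble cells on polysomes, and the subpolysomal change is taken likewise in the other fraction. The change in translational efficiency is the first minus the second. Calls were made with the linear models of limma, where the p, adjusted by Benjamini-Hochberg over all 19366 genes, had to be under 0.05. Because RNA was taken from whole cultures, fewer cells of a type and less RNA per cell cannot be told apart.

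Of the arrays' 39429 probes, 20194 to 24957 per array were well above background, precision was limited by the number of arrays, and the 4 slides each held 1 array of every group. Eif6 itself, the target of the shRNA, had a log2 signal of 12.94 to 12.96 on the scramble polysomal arrays and of 11.81 to 12.00 on those of eIF6 shRNA cells, and 11.53 to 11.66 against 11.49 to 11.74 in the subpolysomal fraction. Its polysomal change was -1.05 (SE 0.08, adjusted p = 1.46e-07, limma), and its subpolysomal change was 0.015. Of 11 hepatocyte markers, 9 were well above background on all 16 arrays. Albumin (Alb), the main protein that hepatocytes secrete, had group means of 2.01 to 3.91, near background, and Apoa1 had group means of 2.48 to 2.85. The hepatocyte label therefore holds for some of its defining markers and not for albumin or Apoa1. Of 7 fibroblast markers, 6 were well above background on all arrays, and the median signal of the list was 12.53 and 13.28 (subpolysomal and polysomal) in scramble cells and 10.99 and 10.64 in eIF6 shRNA cells. Of this list, Vim was not called in either fraction (changes of -0.38 and -0.04), whereas the other fibroblast markers were lower in both. The difference in fibroblast markers moves with the comparison of both lines, and its part in the results below was not tested.

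Among the polysomal arrays, the pair numbered 4 stood apart for the genes of glucose use. On scramble polysomal array 4, 27 of the 35 genes had the highest signal of the group, the median gene lay 0.32 above the mean of the other arrays, and 8 genes lay more than 1 above it (over all genes, 34.6% were highest there and 2.47% lay more than 1 above). The eIF6 shRNA polysomal array 4 showed the same tendency, with 22 genes highest and a median of 0.23. The genes furthest out on the scramble array were Eno1 (1.73 above the other arrays), Pkm (1.71), Pgk1 (1.69), Gpi1 (1.48) and G6pdx (1.38). They were picked after their values were seen. Pkm, the pyruvate kinase of most dividing cells, read 14.98, 15.00, 14.85 and 16.65 on scramble polysomal arrays 1 to 4, and the deviations of the pair from their group means over all genes had the largest correlation of any cross-group pair (r = 0.41). The calls that changed when they were left out are given below as counts, and with values for the genes that moved most.

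**Figure D1:**
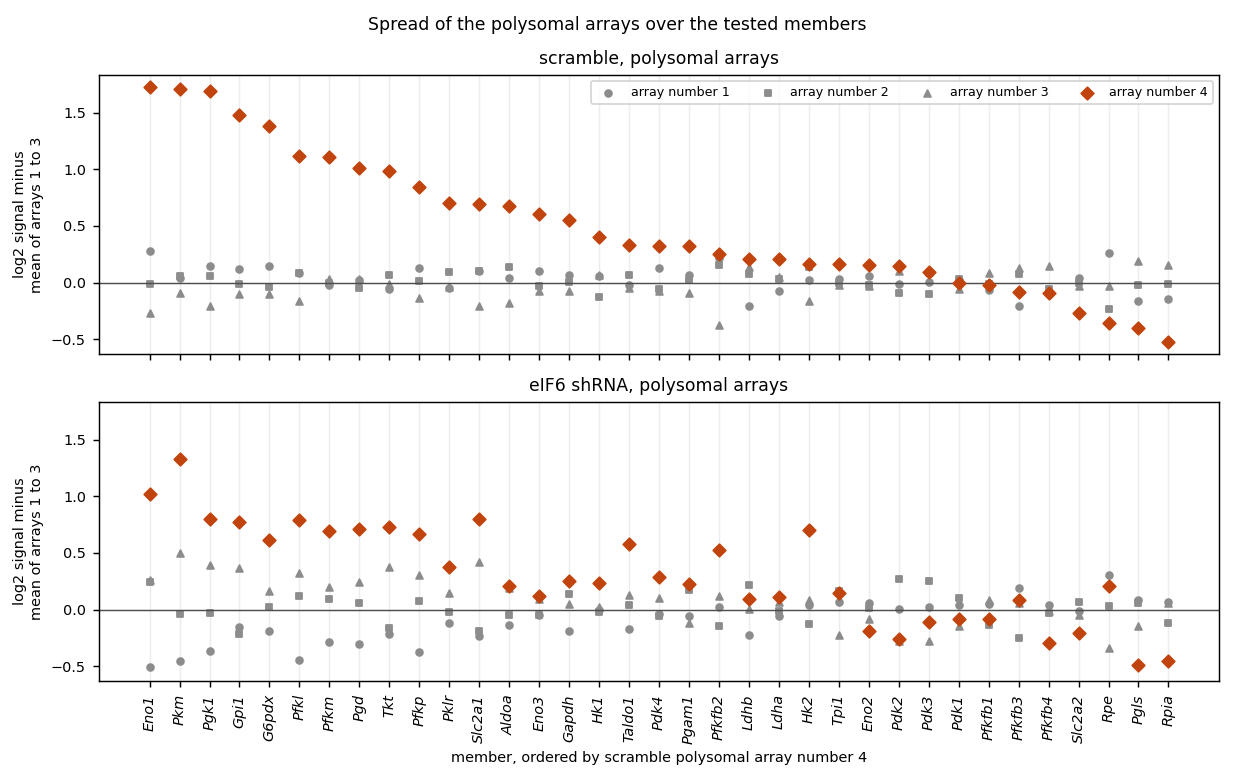
Signal of 35 genes of glucose use on each polysomal array, as the log2 difference from the mean of arrays 1 to 3 of the same group (vertical axis), with genes along the horizontal axis in the order of scramble array 4. Diamonds mark array 4, which lay up to 1.73 above the others in scramble cells and up to 1.33 above them in eIF6 shRNA cells.

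On polysomes, 6 genes were lower and 5 higher in eIF6 shRNA cells. Lower were the muscle-type and tumour-type enzymes Hk2, Eno3 and Pfkfb4, the heart-type lactate dehydrogenase Ldhb, the liver-type Pfkfb1 and the kinase Pdk3. Higher were the liver glucose transporter Slc2a2, the liver pyruvate kinase Pklr, the neuronal enolase Eno2, the inducible Pfkfb3 and the kinase Pdk2. These 11 are 31.4% of the 35 genes, beside 21.8% of all genes tested (10.7% lower, 11.1% higher). The median polysomal change of the genes was 0.037, with a range from -1.55 to 1.14, and that of all genes was 0.016.

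In the subpolysomal fraction, 4 genes were lower (Hk2, Ldhb, Pfkfb1, Pfkfb4) and 3 higher (Eno2, Pklr, Pdk2). That is 20% of the genes, beside 24.2% of all genes (12.3% lower, 11.9% higher), with a median of 0.095 beside 0.025. All 7 were also called on polysomes, in the same direction, and they made up 63.6% of the polysomal calls. With shares of this size beside the background, the genes are described one by one and not as a set that moved. The arrays of both lines did not overlap for 10 genes on polysomes (background 22.4%) and for 13 in the subpolysomal fraction (background 31.5%).

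Without scramble polysomal array 4, 5 genes were lower and 11 higher on polysomes (11.8% and 11.6% of all genes), and 4 were lower and 6 higher in the subpolysomal fraction (14.1% and 13.7% of all genes). The 6 genes added on polysomes were Gpi1, Pfkl, Pfkm, Aldoa, Pgk1 and Taldo1, and Hk2 was lost, while Gpi1, Pfkm and Slc2a2 were added in the subpolysomal fraction. Without either polysomal array numbered 4, a choice made after seeing the data, 7 were lower and 8 higher on polysomes (11.5% and 12.7% of all genes), and 5 and 8 in the subpolysomal fraction (16.1% and 15.7%). Scaled to 7 spike-in probes instead, only Ldhb on polysomes and Pfkfb4 in the subpolysomal fraction were called (both lower), with the median of all genes at -0.47 and -0.23. Of all genes, 5.45% were then lower and 0.522% higher on polysomes, and 1.79% and 0.222% in the subpolysomal fraction. With the 75th percentile of each array as the scale, 6 were lower and 8 higher on polysomes (2127 and 1985 of all genes) and 3 and 7 in the subpolysomal fraction (1897 and 2335 of all genes).

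**Figure D2:**
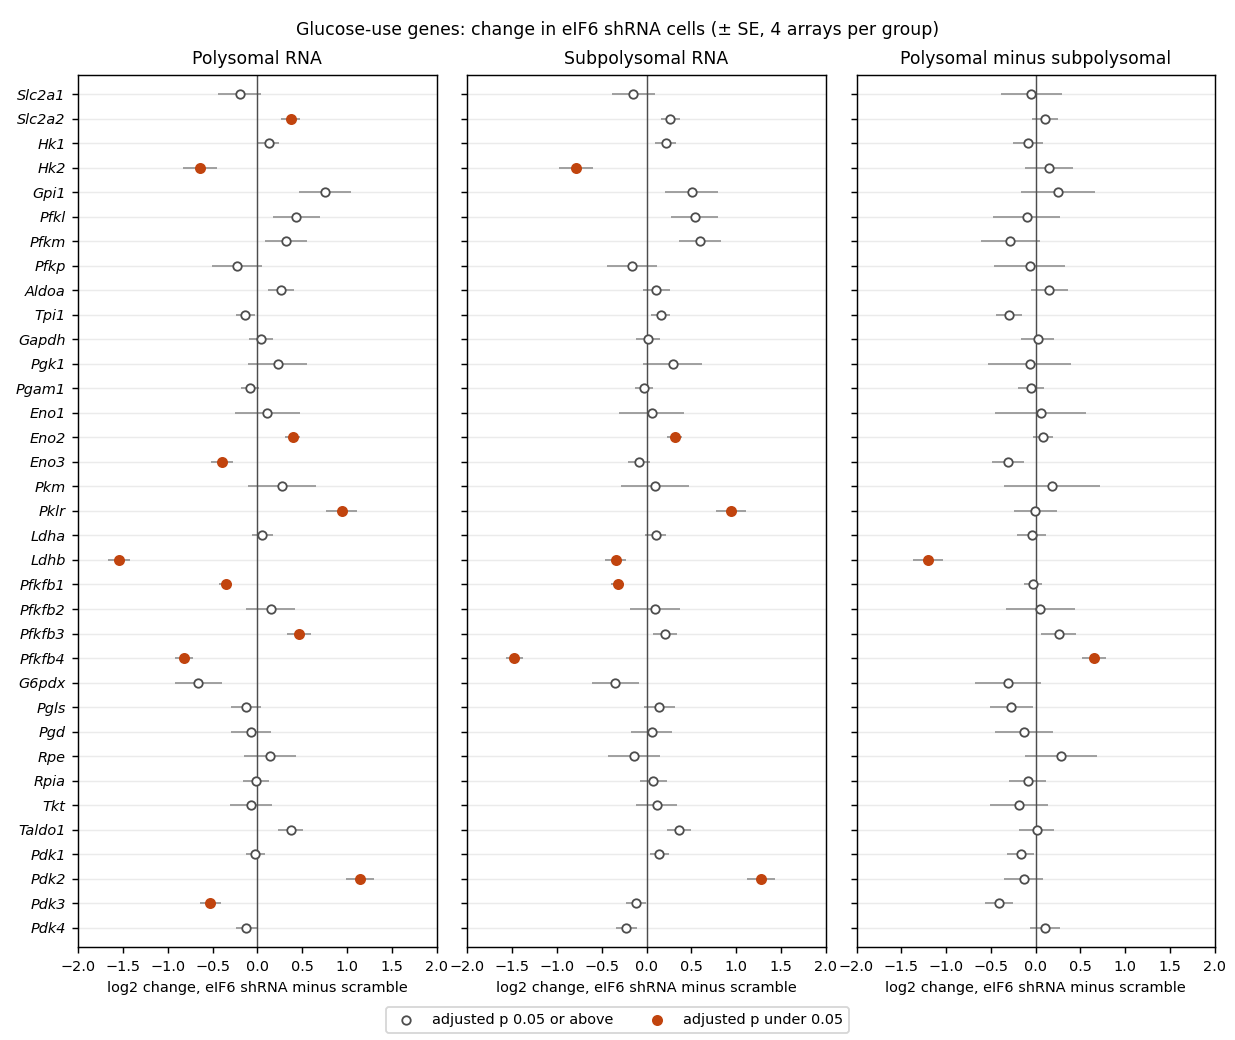
Change of each of 35 genes in eIF6 shRNA minus scramble cells (horizontal axis, log2, with SE from limma, 4 arrays per group) for polysomal RNA, subpolysomal RNA and the difference of both, which is the change in translational efficiency. Filled points passed the adjusted p of 0.05, which 11, 7 and 2 genes did in the respective panels.

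At glucose entry, Slc2a1, the transporter of most dividing cells, read 11.99 ± 0.38 (SD, n = 4) on scramble polysomes and 11.79 ± 0.50 in eIF6 shRNA cells, and was not called in either fraction. Slc2a2, the transporter of liver and beta cells, was higher on polysomes by 0.37 (SE 0.10, adjusted p = 0.017, limma), from 7.65 ± 0.14 to 8.02 ± 0.11. Its subpolysomal change of 0.27 was not called (adjusted p = 0.074), but was without scramble polysomal array 4 (adjusted p = 0.048). The polysomal call was lost without eIF6 shRNA polysomal array 2 (adjusted p = 0.050).

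Hk2 encodes the hexokinase of muscle and of many dividing cells. Its log2 signals on scramble polysomal arrays 1 to 4 were 8.99, 9.10, 8.81 and 9.14, and on those of eIF6 shRNA cells 8.24, 8.07, 8.28 and 8.90. The subpolysomal arrays read 9.61, 9.62, 9.56 and 8.85 in scramble cells and 8.70, 8.41, 8.63 and 8.76 in eIF6 shRNA cells. The polysomal ranges overlapped through eIF6 shRNA array 4, and scramble subpolysomal array 4 stood apart from its group, near the eIF6 shRNA arrays. The polysomal change was -0.64 (SE 0.19, a 1.56-fold decrease, adjusted p = 0.025) and the subpolysomal change -0.79 (adjusted p = 0.0074). The polysomal call was lost when any of scramble polysomal arrays 1, 2 and 4 or eIF6 shRNA polysomal arrays 1, 2 and 3 was left out (adjusted p 0.052 to 0.079). Hk1, the hexokinase found in most tissues, had changes of 0.13 and 0.21 with neither called.

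In upper glycolysis (Gpi1, Pfkl, Pfkm, Pfkp and Aldoa) no gene was called in the fit of all 16 arrays, but several readings turned on the arrays numbered 4. Gpi1, which converts glucose-6-phosphate to fructose-6-phosphate, read 15.55 to 15.76 on scramble subpolysomal arrays and 16.07 to 16.24 on those of eIF6 shRNA cells. Pfkm, the muscle-type phosphofructokinase, read 9.91 to 10.21 and 10.60 to 10.71. Neither pair of ranges overlapped, and the changes of 0.50 (adjusted p = 0.24) and 0.60 (adjusted p = 0.077) were not called in the fit of all arrays. Both were chosen for description after their values were seen. The fit takes its spread from all 4 groups, and for both genes the SD was 0.40 to 0.74 on polysomes and 0.05 to 0.12 in the subpolysomal fraction. When each fraction was fitted on its own 8 arrays, an analysis added after seeing the data, Gpi1 (adjusted p = 0.0027), Pfkm (0.0013) and the liver-type Pfkl (change 0.54, adjusted p = 0.013) were higher in the subpolysomal fraction. That fit called 5 lower and 8 higher there (26.9% of all genes called), with Pgk1, Taldo1 and G6pdx as the other additions.

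Without scramble polysomal array 4, the polysomal change of Gpi1 was 1.15 (adjusted p = 0.00056) against 0.75 (adjusted p = 0.086) with it. The corresponding values of Pfkl were 0.71 and 0.44 and those of Pfkm 0.59 and 0.32. Pfkp, the platelet-type phosphofructokinase, was not called. Its 2 probes disagreed, at -0.42 and -0.04 on polysomes and at 0.08 and -0.40 in the subpolysomal fraction. Aldoa, the aldolase of muscle and dividing cells, had a polysomal change of 0.26 with all arrays and of 0.44 (adjusted p = 0.010) without scramble polysomal array 4.

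In lower glycolysis the abundant enzymes Tpi1, Gapdh, Pgk1, Pgam1, Eno1 and Pkm were not called in either fraction, with polysomal changes of -0.14 to 0.28. Gapdh, often used as a reference, had polysomal and subpolysomal changes of 0.04 and 0.01 (SE 0.13) over 7 probes. Of these, 1 Gapdh probe and 1 of the 2 Pgk1 probes are placed by the files on a chromosome other than that of their companions, so copies elsewhere in the genome may share their signal. Without scramble polysomal array 4, Pgk1, which makes the first ATP of glycolysis, was higher on polysomes (0.66, adjusted p = 0.034), and without both arrays numbered 4 it was not called (0.47, adjusted p = 0.059). The same single omission moved Eno1 to 0.55 (adjusted p = 0.16), Pkm to 0.72 (adjusted p = 0.10) and Gapdh to 0.18, none of them called. The phosphoglycerate mutase of muscle, Pgam2, was well above background on 1 of 16 arrays and was not tested.

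The enolases went different ways. Eno2, the enolase named for neurons, was higher in both fractions, by 0.39 on polysomes (7.51 ± 0.09 against 7.91 ± 0.11, SD, n = 4, adjusted p = 0.0024) and by 0.31 in the subpolysomal fraction (adjusted p = 0.012). Eno3, the muscle form, was lower on polysomes (-0.40, adjusted p = 0.032, and -0.25 without scramble polysomal array 4), and its subpolysomal change was -0.09. The call of Eno3 was lost without scramble polysomal array 1 or any of eIF6 shRNA polysomal arrays 1 to 3 (adjusted p 0.050 to 0.076), and also when the polysomal arrays were fitted alone (adjusted p = 0.13).

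Pklr, the pyruvate kinase of liver and red cells, rose in both fractions. Scramble polysomal arrays 1 to 4 read 6.33, 6.47, 6.34 and 7.09, and eIF6 shRNA polysomal arrays 7.29, 7.38, 7.55 and 7.78. The subpolysomal signals were 5.64, 5.94, 6.06 and 6.18 in scramble cells and 6.78, 6.97, 7.05 and 6.79 in eIF6 shRNA cells. All 4 eIF6 shRNA arrays lay above all scramble arrays in each fraction, although scramble polysomal array 4 came close. The changes were 0.94 (SE 0.17, 1.92-fold, adjusted p = 0.0008) on polysomes and 0.94 (1.92-fold, adjusted p = 0.00087) in the subpolysomal fraction, and within slides they ran from 0.29 to 1.45 and from 0.79 to 1.16. Its counterpart Pkm had changes of 0.28 and 0.09, neither called. The polysomal change was 1.11 for Pklr and 0.72 (SE 0.30) for Pkm when scramble polysomal array 4 was left out.

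Lactate dehydrogenase gave the largest polysomal decrease of the 35 genes. Ldhb encodes the heart-type subunit, which favours the oxidation of lactate. Its scramble polysomal arrays 1 to 4 read 9.36, 9.65, 9.71 and 9.78, and those of eIF6 shRNA cells 7.83, 8.28, 8.06 and 8.15. In the subpolysomal fraction the signals were 7.73, 7.87, 7.91 and 7.96 in scramble cells and 7.42, 7.35, 7.72 and 7.59 in eIF6 shRNA cells. The groups were more than 1 apart on polysomes and nearly touched below them, where the highest eIF6 shRNA array lay just under the lowest scramble array. The polysomal change was -1.55 (SE 0.12, a 2.92-fold decrease, adjusted p = 1.92e-07), the subpolysomal change -0.35 (adjusted p = 0.047) and the change in translational efficiency -1.20 (SE 0.17, 2.30-fold, adjusted p = 0.0016). Within the 4 slides, the polysomal change ran from -1.88 to -1.21 and that in translational efficiency from -1.45 to -0.76. The subpolysomal call was lost in 10 of the 16 fits that left out 1 array (adjusted p up to 0.13), whereas the polysomal call and that in translational efficiency were kept in all 16.

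Ldha, the muscle-type subunit of the same enzyme, which favours lactate formation, had 3 probes and changes of 0.06 on polysomes, 0.10 in the subpolysomal fraction and -0.04 in translational efficiency, none of them called. In scramble cells its polysomal signal exceeded the subpolysomal by 0.84 and in eIF6 shRNA cells by 0.79, while the excess of Ldhb went from 1.76 to 0.56.

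**Figure D3:**
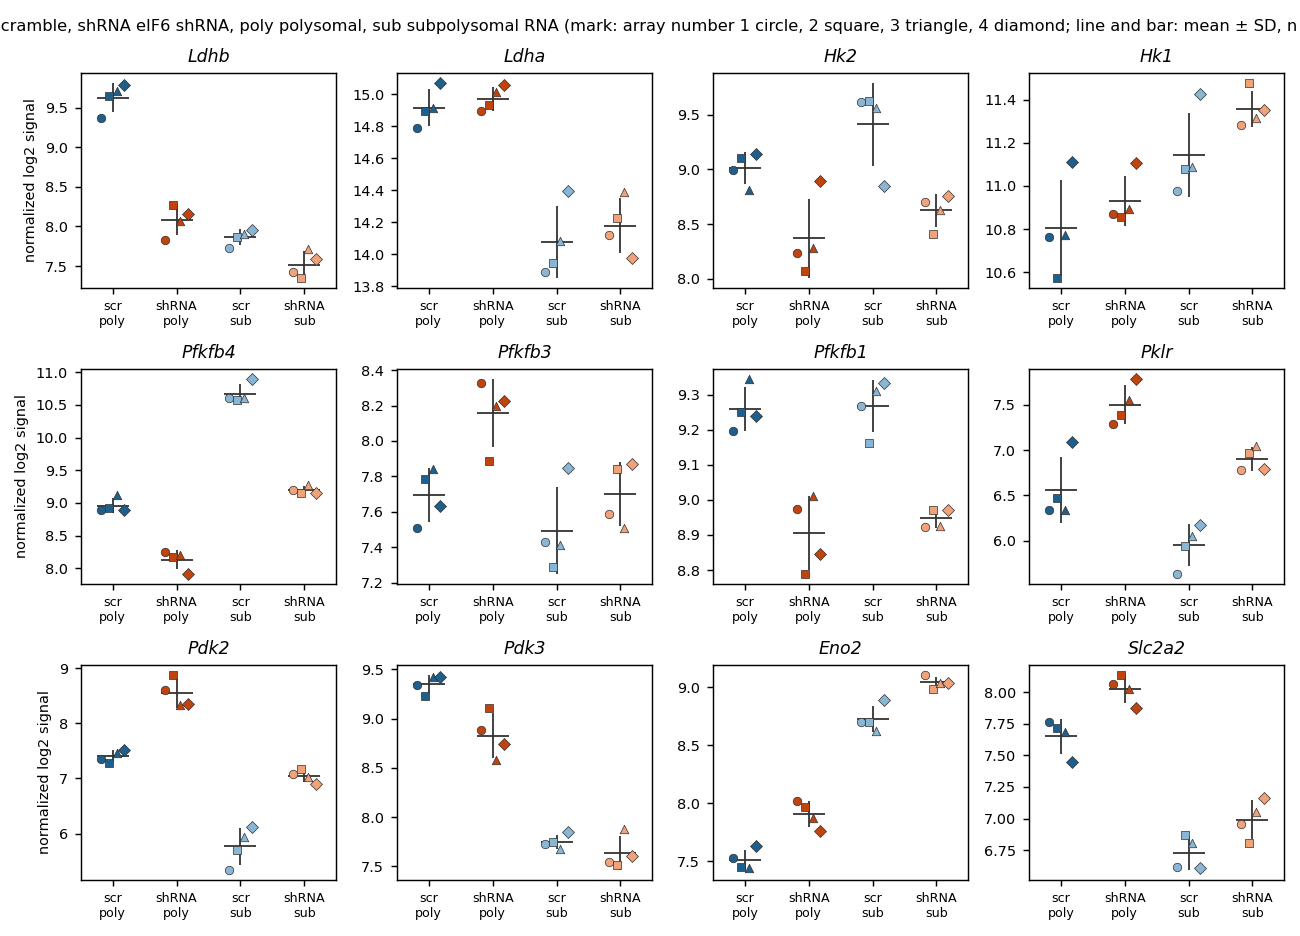
Normalized log2 signal (vertical axis, a scale of its own in each panel) of 12 genes on every array, with the groups along the horizontal axis (scramble and eIF6 shRNA, polysomal then subpolysomal RNA). The marks stand for array numbers 1 to 4 and the line with bar for the mean ± SD of 4 arrays. For Ldhb, the scramble polysomal arrays, at 9.36 to 9.78, lie above all other groups, whereas for Pfkfb4 the scramble subpolysomal arrays, at 10.57 to 10.90, do.

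The Pfkfb enzymes set the level of fructose-2,6-bisphosphate. Pfkfb4, a form known from testis and tumours, read 8.89, 8.93, 9.13 and 8.89 on scramble polysomal arrays 1 to 4 and 8.25, 8.18, 8.20 and 7.91 on those of eIF6 shRNA cells. Its subpolysomal signals were 10.61, 10.57, 10.61 and 10.90 in scramble cells and 9.20, 9.15, 9.28 and 9.16 in eIF6 shRNA cells. All eIF6 shRNA arrays lay below all scramble arrays in each fraction, with the wider gap in the subpolysomal fraction. The polysomal change was -0.82 (SE 0.10, a 1.77-fold decrease, adjusted p = 1.56e-05) and the subpolysomal change -1.47 (SE 0.10, 2.78-fold, adjusted p = 7.42e-08). Translational efficiency, as the difference of both, was higher by 0.65 (SE 0.14, adjusted p = 0.028), and by 0.40 to 0.87 within slides. This last call was lost without scramble polysomal array 1 or 2, eIF6 shRNA subpolysomal array 1 or 2, or eIF6 shRNA polysomal array 1, 2 or 3 (adjusted p 0.054 to 0.074).

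Pfkfb1, the form of liver and muscle, was lower in both fractions (changes of -0.35 and -0.32, adjusted p = 0.0021 and 0.0045). Pfkfb3, the inducible form with strong kinase activity, was higher on polysomes (0.47, adjusted p = 0.024), with a subpolysomal change of 0.21 that was not called. Its 2 probes gave polysomal changes of 0.59 and 0.34, and the call was lost without scramble polysomal array 1 or eIF6 shRNA polysomal array 1, 3 or 4 (adjusted p 0.052 to 0.080) and without both arrays numbered 4 (adjusted p = 0.088). Pfkfb2, the heart form, was not called.

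For translational efficiency, Ldhb (lower) and Pfkfb4 (higher) were the only genes called of the 35, beside 1.51% of all genes (1.11% lower, 0.403% higher). Both calls stood without scramble polysomal array 4 and without either polysomal array numbered 4. Spike-in scaling ended both, and the call of Pfkfb4 was also lost with the 75th percentile as the scale (adjusted p = 0.051), without a detection filter and with the replicate number as a block (adjusted p = 0.055). Each rests on a single probe, since the second Pfkfb4 probe was not well above background on any array. The opening 30 bases of these probes, each 60 bases long, are shown so that the measured transcript can be found.
Ldhb probe, mm9 chr6:142438770-142438829, minus strand: aggcttgtttgatgtttgcactaggagctc
Pfkfb4 probe, mm9 chr9:108934652-108934711, plus strand: ttatcctggttttcacttgtgcattgcact

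The positions are those the files give, and the exon or untranslated region that each probe lies in was not looked up, because the annotation used here is of a later build.

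In the pentose phosphate pathway, which makes NADPH and ribose, none of the 7 genes was called in the fit of all arrays. G6pdx, which commits glucose-6-phosphate to the pathway, read 10.98 ± 0.70 (SD, n = 4) on scramble polysomes and 10.32 ± 0.34 in eIF6 shRNA cells (change -0.66, adjusted p = 0.091), and its scramble array 4, at 12.02, lay above the other 3 at 10.53 to 10.78. Without scramble polysomal array 4 alone the polysomal change of G6pdx was -0.32 and not called (adjusted p = 0.16), nor was the subpolysomal change (adjusted p = 0.078). Without both polysomal arrays numbered 4, G6pdx was lower on polysomes (-0.47, adjusted p = 0.0071) and in the subpolysomal fraction (-0.35, adjusted p = 0.013). Taldo1, the transaldolase of the non-oxidative branch, had changes of 0.37 and 0.36 (adjusted p = 0.068 and 0.069) and was higher in both fractions under the same omission (0.32 and 0.36, adjusted p = 0.029 and 0.0050). Pgd, Pgls, Tkt, Rpia and Rpe had polysomal changes between -0.13 and 0.14. When scramble polysomal array 4 was left out, those of Pgd and Tkt turned from -0.07 to 0.18, and neither was called.

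Rpe, the ribulose phosphate epimerase, was well above background on all 8 polysomal arrays, on 1 of 4 scramble and on none of the eIF6 shRNA subpolysomal arrays. In eIF6 shRNA cells its polysomal signal of 4.74 was therefore at least 2.4-fold higher than the subpolysomal one, computed against the lowest signal that counts as detected. Rpe passed the detection filter only through the polysomal arrays, so no p-value is given.

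The pyruvate dehydrogenase kinases changed in different directions. Pdk2, the widely expressed form that is strong in liver, read 7.35, 7.27, 7.46 and 7.51 on scramble polysomal arrays and 8.61, 8.88, 8.33 and 8.34 on those of eIF6 shRNA cells. The subpolysomal signals were 5.34, 5.70, 5.94 and 6.12 in scramble cells and 7.08, 7.17, 7.03 and 6.91 in eIF6 shRNA cells. The groups were apart by more than 0.7 in each fraction. The changes were 1.14 (SE 0.16, 2.21-fold, adjusted p = 6.49e-05) and 1.27 (2.42-fold, adjusted p = 2.84e-05), its 2 probes gave 1.17 and 1.11 on polysomes, and within slides the polysomal change was 0.99 to 1.36.

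Pdk3, a kinase first known from testis and kidney, read 9.34, 9.23, 9.42 and 9.42 on scramble polysomal arrays and 8.88, 9.11, 8.58 and 8.74 on those of eIF6 shRNA cells. In the subpolysomal fraction it read 7.73, 7.75, 7.68 and 7.85 and, in eIF6 shRNA cells, 7.54, 7.51, 7.88 and 7.60. The polysomal ranges did not overlap, and the subpolysomal ones did. The polysomal change was -0.52 (SE 0.11, adjusted p = 0.0031), the subpolysomal change -0.12, and the change in translational efficiency of -0.41 was not called (adjusted p = 0.29). Pdk1, which hypoxia is known to induce, and Pdk4, which fasting induces in liver, were not called.

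With the slide as a block in the model, the counts of genes called were again 6 and 5 on polysomes, 4 and 3 in the subpolysomal fraction and 1 and 1 in translational efficiency. The shares of all genes, lower and higher, were 11.4% and 11.8%, 13.5% and 13.4%, and 1.27% and 0.439%.

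Hk2 and Pfkfb4, which fell, and Pklr and Pdk2, which rose, were called with a change of at least 0.5 in size in both fractions, and Ldhb, which fell, was called in translational efficiency. The 250 bases before their transcription starts are shown (RefSeq, GRCm38.p6, with the most upstream start where a gene has several, as Pklr and Pdk2 do with 2 each). Capitals mark ACGTG and GCGTG on either strand, so that CACGT and CACGC are the same letters read on the other strand. They are the core of the hypoxia response element, a motif known from promoters of glycolytic genes. CACGTG, the E-box that glucose- and Myc-responsive factors are known to bind, holds ACGTG on both strands and was counted on its own as well.
Hk2, chr6:82774455-82774704, minus strand: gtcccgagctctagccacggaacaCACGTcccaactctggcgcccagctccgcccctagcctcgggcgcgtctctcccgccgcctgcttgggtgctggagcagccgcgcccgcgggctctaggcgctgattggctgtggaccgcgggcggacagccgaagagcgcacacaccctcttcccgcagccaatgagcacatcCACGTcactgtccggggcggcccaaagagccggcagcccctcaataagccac
Ldhb, chr6:142507958-142508207, minus strand: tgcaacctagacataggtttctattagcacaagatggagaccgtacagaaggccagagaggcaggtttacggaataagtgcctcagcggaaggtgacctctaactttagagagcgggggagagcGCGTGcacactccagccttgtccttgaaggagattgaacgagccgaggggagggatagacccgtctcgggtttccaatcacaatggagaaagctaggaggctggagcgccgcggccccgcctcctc
Pfkfb4, chr9:108991652-108991901, plus strand: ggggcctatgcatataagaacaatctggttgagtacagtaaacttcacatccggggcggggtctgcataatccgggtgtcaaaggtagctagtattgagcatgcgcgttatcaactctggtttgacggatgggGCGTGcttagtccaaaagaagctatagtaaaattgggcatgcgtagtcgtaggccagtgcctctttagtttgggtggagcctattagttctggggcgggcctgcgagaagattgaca
Pklr, chr3:89135892-89136141, plus strand: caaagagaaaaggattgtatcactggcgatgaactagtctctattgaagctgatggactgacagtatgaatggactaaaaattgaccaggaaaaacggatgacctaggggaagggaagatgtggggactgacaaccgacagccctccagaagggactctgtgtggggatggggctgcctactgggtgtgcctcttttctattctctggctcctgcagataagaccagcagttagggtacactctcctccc
Pdk2, chr11:95041372-95041621, minus strand: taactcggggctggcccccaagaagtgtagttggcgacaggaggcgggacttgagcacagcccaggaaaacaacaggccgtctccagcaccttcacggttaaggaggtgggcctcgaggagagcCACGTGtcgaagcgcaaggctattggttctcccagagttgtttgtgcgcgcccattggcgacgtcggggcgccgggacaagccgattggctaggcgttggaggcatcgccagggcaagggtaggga

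The Hk2 window held 2 matches of ACGTG, those of Ldhb and Pfkfb4 1 match of GCGTG each, that of Pdk2 1 CACGTG (counted as 2 matches of ACGTG) and that of Pklr no match. The other windows of Pklr and Pdk2, not shown, held no match. With so few windows, no contrast between genes that fell and genes that rose is drawn. Over all windows of the table, 38.6% held ACGTG or GCGTG, and of those of the genes described here 69.1% did. All 35 genes tested had a promoter window in the table, 55 windows in all. Of these, 29.1% held ACGTG, beside 16.6% of all 32851 windows of the same length, 50.9% held GCGTG beside 28.2%, and 9.09% held CACGTG beside 6.02%. Windows of the same gene can overlap, as some of Eno1, Aldoa and Pfkm do, so a match can be counted more than once. Base composition was not taken into account in these shares. A match is a string of letters in a window and not a bound site.

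In scramble cells, 3 of the 35 genes were relatively low on polysomes against the subpolysomal fraction (Hk1, Eno2, Pfkfb4) and 14 relatively high, beside 28.4% and 31.7% of all genes (60.1% called in either direction). The median over the genes was 0.42 and that of all genes 0.035. The 3 relatively low genes became 5 without scramble polysomal array 4 or with the slide as a block, and 8 without both polysomal arrays numbered 4 (28.3%, 29.4% and 29.9% of all genes). Relatively high were Ldhb (1.76), Pdk2 (1.63), Pdk3 (1.60), Pdk1 (1.43), Tpi1 (1.34), Aldoa (1.30), Pgam1 (1.18), Slc2a2 (0.93), Taldo1 (0.91), Ldha (0.84), Gapdh (0.67), Pklr (0.61) and Rpia (0.42), together with Rpe, for which no size is given because 1 of 4 subpolysomal arrays was well above background. Rpe counts among the 14, although it passed the detection filter only through the polysomal arrays. Relatively low were Pfkfb4 (-1.72), Eno2 (-1.22) and Hk1 (-0.34), although the 3 probes of Hk1 gave -0.10, -1.16 and 0.24.

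In eIF6 shRNA cells, 4 genes were relatively low (Hk1, Eno2, Eno3 and Pfkfb4) and 14 relatively high, beside 28.7% and 32.1% of all genes (60.8% in either direction), with a median of 0.34 beside 0.034. The 14 again include Rpe, with the same limit of the detection filter. The excess on polysomes was smaller than in scramble cells for Ldhb (0.56) and the deficit smaller for Pfkfb4 (-1.06), which are the differences called above. For the other genes the change in translational efficiency was not called. The sign of the values of Hk1, Eno2, Eno3 and Pfkfb4 turned when each fraction was normalized on its own or to spike-in probes, except that Pfkfb4 in scramble cells remained at -0.05 with each fraction on its own. Under those scalings the median of all genes lay at 1.30 to 1.52.

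**Figure D4:**
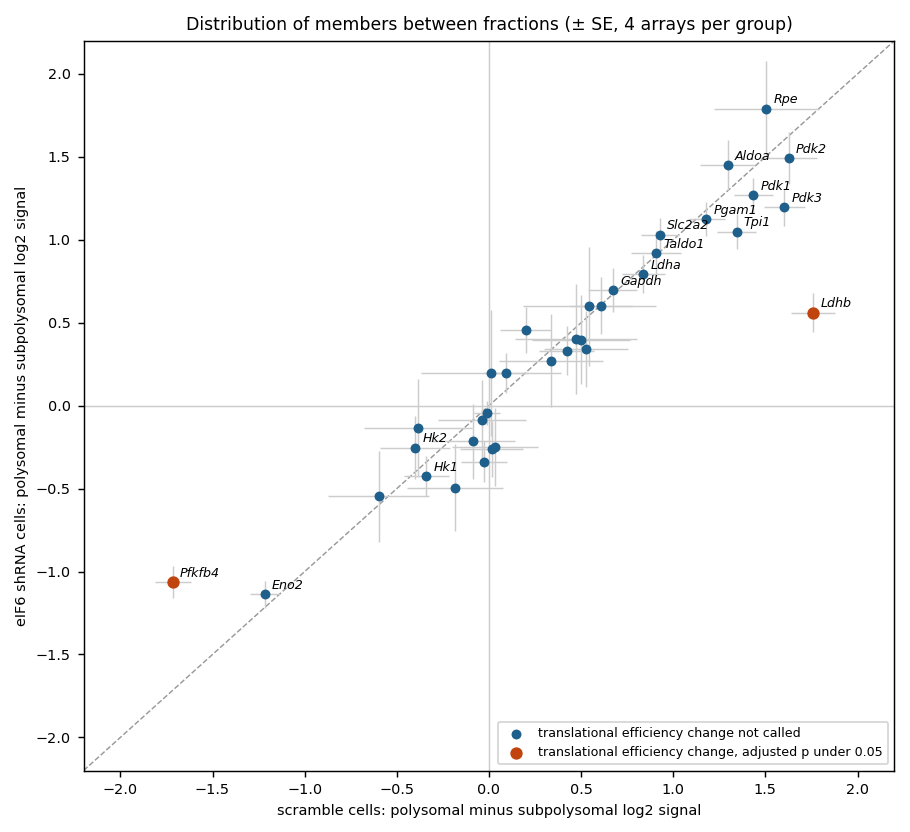
Polysomal minus subpolysomal log2 signal of 35 genes in scramble cells (horizontal axis) and in eIF6 shRNA cells (vertical axis), with SE from limma over 4 arrays per group; the dashed line marks equal values. Most genes lie along the line, and Ldhb, at 1.76 and 0.56, and Pfkfb4, at -1.72 and -1.06, lie off it and were called.

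The balance of isoenzymes was taken within each array as the log2 difference between both genes, so that a shift shared by them cancels. The level of that difference depends on the probes and is not given; its shift between both lines is. For 22 pairs of the same enzyme and both fractions, 44 exact two-sided permutation tests of 4 against 4 arrays were run. The smallest p that 70 splits allow is 0.0286, and after adjustment over the 44 tests it became 0.0503, so no pair passed the threshold. The lines did not overlap for 14 pairs on polysomes and for 11 in the subpolysomal fraction, each at an exact p = 0.0286. Pairs that share a gene are not independent, and the share over other pairs of genes was not computed. The share of single genes without overlap, 22.4% and 31.5%, is an unlike measure. The counts of pairs are therefore not read as a shift of isoenzymes as a set.

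Ldhb against Ldha shifted by -1.60 on polysomes without overlap and by -0.45 in the subpolysomal fraction with overlap. The shift of Hk2 against Hk1 was -0.767 and -0.9998, without overlap in either fraction. Pfkp against Pfkl shifted by -0.66 on polysomes without overlap, and the difference had an SD of 0.15 in scramble and 0.08 in eIF6 shRNA cells. Without scramble polysomal array 4 the SD in scramble cells was 0.06. The 2 Pfkp probes gave polysomal changes of -0.42 and -0.04. Pfkm against Pfkl shifted by -0.12 and 0.06, with overlap in both fractions.

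Among the regulators, Pfkfb4 against Pfkfb1 shifted by -0.47 and -1.16, and Pfkfb3 against Pfkfb1 by 0.82 and 0.53, all without overlap. For the kinases, Pdk2 against Pdk1 shifted by 1.16 and 1.13 and Pdk3 against Pdk2 by -1.67 and -1.39, also without overlap. Eno2 against Eno3 shifted by 0.79 and 0.40 without overlap. Pkm against Pklr shifted by -0.66 on polysomes with overlap and by -0.85 in the subpolysomal fraction without it. Without scramble polysomal array 4 the polysomal shift of Pkm against Pklr was -0.39, and those of Ldhb against Ldha (-1.60), Hk2 against Hk1 (-0.82) and Pfkp against Pfkl (-0.73) again had no overlap.

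**Figure D5:**
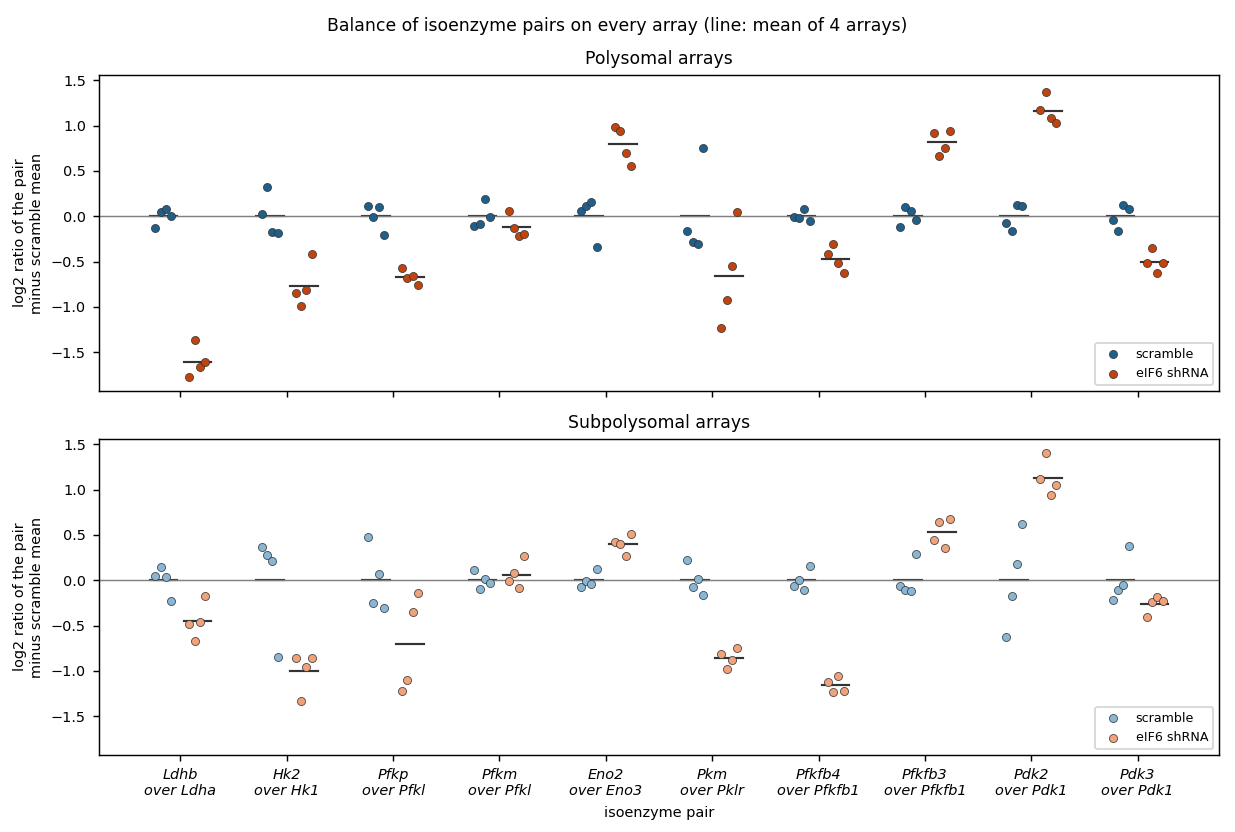
Log2 ratio of isoenzyme pairs on every array (vertical axis), set to a mean of 0 in scramble cells of the same fraction, for 10 pairs along the horizontal axis; lines mark the mean of 4 arrays. On polysomes the ratio of Ldhb to Ldha lay 1.60 lower in eIF6 shRNA cells and that of Pdk2 to Pdk1 1.16 higher, and neither overlapped with scramble cells.

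Other genes of the pathway came from a list of 51 names, of which the arrays hold 47 and 39 were tested. On polysomes 3 were lower and 7 higher, in the subpolysomal fraction 4 and 7, and in translational efficiency 1 and 1, beside the shares of all genes given above. The counts in both fractions include Slc2a6 (higher) and Slc2a13 (lower). Both passed the detection filter only through 1 line, the one where they were brighter. Genes of this list called with a change of at least 1 are described.

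Aldoc, the aldolase of brain, was the other gene with higher translational efficiency. Its scramble polysomal arrays read 6.91, 7.15, 6.68 and 7.37 and those of eIF6 shRNA cells 8.52, 8.54, 8.84 and 9.06, without overlap. The subpolysomal signals were 8.98, 8.93, 9.001 and 8.68 against 8.88, 8.73, 8.75 and 8.85, where the ranges overlapped. The polysomal change was 1.71 (SE 0.15, adjusted p = 7.71e-07), the subpolysomal change -0.10 and the change in translational efficiency 1.81 (adjusted p = 0.0004). Hkdc1, a hexokinase-like protein, was higher by 2.54 on polysomes and by 2.54 in the subpolysomal fraction (SE 0.20 in both), and Ldhd, which oxidizes D-lactate, by 1.33 and 1.32.

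Among the other Slc2a transporters, Slc2a5, a fructose carrier, was higher by 1.72 and 1.59. Slc2a10 was lower in both fractions, with changes of -2.87 (polysomal) and -1.73 (subpolysomal) and a change in translational efficiency of -1.14 (adjusted p = 0.015). Slc2a6 was higher on polysomes, where 1 of 4 scramble arrays was well above background so that no size is given. In the subpolysomal fraction, where none was, it was at least 1.39-fold higher. Slc2a6 passed the detection filter only through the eIF6 shRNA arrays, so no p-value is given. Slc2a13, which carries myo-inositol, was not well above background on any eIF6 shRNA array and was at least 3.59-fold lower there on polysomes. Against 3 of 4 detected scramble arrays, it was at least 1.65-fold lower in the subpolysomal fraction. Slc2a13 passed the detection filter only through the scramble arrays, so no p-value is given. Slc2a9, which carries urate, was lower in the subpolysomal fraction (adjusted p = 0.026), but was well above background on 3 of 4 scramble arrays and on 1 of 4 of eIF6 shRNA cells, so that no size is given.

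Slc16a3, the exporter of lactate in glycolytic cells, was lower on polysomes (-1.43, adjusted p = 3.22e-06) and in the subpolysomal fraction (-0.89, adjusted p = 0.00038). The other calls on this list were Shpk and Gpd1l, higher in both fractions, and Pdha1, a subunit of pyruvate dehydrogenase, higher in the subpolysomal fraction by 0.53. The genes Hk3, Ldhc, Slc2a3, G6pd2, Tktl1, Tktl2, Pdha2 and Slc16a7 were on the arrays but did not pass the detection filter.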

How the data were processed

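RNA of 16 samples was labelled with Cy3 and hybridized by the authors on one-colour Agilent arrays. Per the labels, Agilent Feature Extraction 10.7.7.1 was used, whereas the deposited files' headers give 10.7.3.1. The deposited intensity is the processed, background-subtracted signal of each spot, with probes placed on mm9. A deposited table of log2 values, normalized by the authors, served as an alternative, with a median of 4.638 to 4.64 in each column. Its scale and direction followed the scanner values (lowest correlation 0.9947). No 2 arrays held identical values, and no spot was saturated.

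Control and outlier spots were left out. A probe was kept where 1 group or more had 2 arrays or more with its signal well above background (25261 of 39429, 64.1%). The log2 intensities were quantile normalized over all arrays, and spots of a probe, then probes of a gene name, were averaged. Means of 4 groups were fitted with limma 3.58.1 in R 4.3.3 (lmFit, eBayes) over 19366 genes, with 5 contrasts and Benjamini-Hochberg adjustment over all genes. The fit was tested on simulated data first. The labels speak of replicate experiments and the methods of biological replicates, and the p-values measure the spread between these arrays. The slide was checked as a batch. Isoenzyme balances were compared by two-sided exact permutation tests.

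The genes and lists were chosen with earlier results of these data known. Values on every array are given for genes called with a change of at least 0.5, and other pathway genes are named where called with a change of at least 1. Alternatives covered scaling, background correction, normalization order, filter, choice of probe, source table, slide and replicate blocks, a plain t-test and leaving out each array.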

Additional observations from a re-analysis of the deposited data

Results flagged for a closer look

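For 14 of 140 combinations of gene and group, 1 of the 4 arrays stood apart, in that its gap to the nearest array was a larger part of the group's whole range than Dixon's limit for 4 values. Chance gives about 1 in 20 for independent values, but the combinations share the same arrays. The share over all genes was not computed, so the count is not read as a trait of these genes. On scramble polysomal array 4 the high values of Gpi1 (gap 0.861 of the range), Pfkm (0.953), Pkm (0.917), G6pdx (0.835), Pgd (0.925) and Tkt (0.884) met this limit. For Pgd, the second dehydrogenase of the pentose phosphate pathway, that array read 11.85 and the nearest 10.87, and for Tkt, the transketolase, 15.88 and 14.97. Pfkfb2 was low on scramble polysomal array 3 (0.851) and Hk1 was high on eIF6 shRNA polysomal array 4 (0.854), at 11.11 against 10.89.

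On scramble subpolysomal array 4, Hk2 was low (0.922), at 8.85 against 9.56, Pdk4 was low (0.865), and Pfkfb4 (0.882) and Pgd (0.883) were high. Scramble subpolysomal array 1 was low for Pfkl (0.849) and Pgk1 (0.853). Without scramble subpolysomal array 4 the calls of Hk2 and Pfkfb4 in that fraction were kept.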

How the results depend on the processing

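The values of genes called in the fit of all arrays were followed over the alternatives. Of these, 1511 kept their direction and call, 83 lost the call and 17 turned sign. Values not called in that fit were not followed, so calls gained under an alternative are not in these counts. Scaled to spike-in probes, 1 gene was lower and 0 higher in each fraction, and 0 were lower and 0 higher in translational efficiency (Ldhb at -1.45). Of all genes, 0.16% were lower and 0.0103% higher in translational efficiency. Relatively high on polysomes were 32 and 30 genes in scramble and eIF6 shRNA cells (69.3% and 58% of all genes), and 0 were relatively low (2.06% and 2.55%). Without quantile normalization 29 isoenzyme balances passed (adjusted p = 0.0433, permutation test). A constant per array cancels within a pair, so this count does not depend on the spike-in probes. The smallest exact p passes the adjustment once more of the 44 tests reach it than the 25 that did after quantile normalization. The polysomal changes of Slc2a2 (-0.087), Eno2 (-0.068) and Pfkfb3 (-0.026) then turned sign. Polysomal minus subpolysomal values turned for Hk1 (1.30 in scramble, 0.95 in eIF6 shRNA cells), Eno2 (0.41 and 0.33), Pfkfb4 (0.070 and 0.42) and Eno3 (1.34 in eIF6 shRNA cells), relative to medians of all genes of 1.52 and 1.30. Under separate normalization of both fractions they were 1.15 and 1.08 for Hk1, 0.30 and 0.42 for Eno2, 1.42 for Eno3 and 0.51 for Pfkfb4 (eIF6 shRNA cells). In scramble and eIF6 shRNA cells, 34 and 35 genes were then relatively high (15786 and 15403 of all genes) and 0 low (899 and 840 of all genes). In the subpolysomal fraction 5 were higher (2197 of all genes), and 27 balances passed. With the 75th percentile, 8 and 7 were higher on polysomes and in the subpolysomal fraction (10.2% and 12.1% of all genes). None had higher translational efficiency (Pfkfb4 at 0.55, adjusted p = 0.051, beside 0.305% of all genes). In scramble cells 5 were relatively low (37.8% of all genes) and Gapdh turned to -0.14 in eIF6 shRNA cells. The 29 balances that passed are those given for the spike-in scale, since the 75th percentile is also 1 constant per array. A plain t-test, on the same values with Benjamini-Hochberg adjustment, called 8 higher in the subpolysomal fraction (2432 of all genes). Without a detection filter 0 had higher translational efficiency (55 of all genes), since an undetected Pfkfb4 probe entered the mean. The slide as a block gave 5 relatively low in scramble cells (29.4% of all genes). The replicate number as a block left 0 with higher translational efficiency (67 of all genes, Pfkfb4 at an adjusted p of 0.055), Hk2 at an adjusted p of 0.052 on polysomes and 0 balances called. It added Pfkm as higher in the subpolysomal fraction (0.60, adjusted p = 0.037) and changed no other call in either fraction or in translational efficiency. Of 24 same-numbered pairs of arrays, 3 had deviations correlated over 0.1 (median r -0.014), the polysomal arrays numbered 4 among them (r = 0.41), so the numbers were not taken to pair the arrays. With 1 array left out, the calls were 4 to 7 lower and 4 to 11 higher on polysomes, 3 to 4 and 3 to 6 in the subpolysomal fraction, 1 to 1 and 0 to 1 in translational efficiency, 2 to 5 and 13 to 15 in scramble cells and 3 to 5 and 14 to 16 in eIF6 shRNA cells between fractions, and 0 to 26 balances. Over all genes these fits called 1739 to 2268 lower and 1687 to 2288 higher on polysomes. In the subpolysomal fraction they called 2000 to 2696 and 1859 to 2631 of all genes, and in translational efficiency 139 to 217 and 47 to 111. Between fractions the counts over all genes are not given for these fits. Balances passed without scramble subpolysomal array 4 or eIF6 shRNA polysomal array 2. Chosen after seeing the data, leaving out both polysomal arrays numbered 4 gave 8 higher on polysomes and 8 in the subpolysomal fraction (12.7% and 15.7% of all genes). It gave 8 and 9 relatively low in scramble and eIF6 shRNA cells (29.9% and 30.4% of all genes). Fitting each fraction alone, also chosen after seeing the data, gave 8 higher in the subpolysomal fraction (2585 of all genes). Beyond the omitted arrays and the undetected probe, the cause was not tested.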
